A study of Bos taurus with 17 samples.

Results

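The 10 genes described here encode matrix metalloproteases (MMP2, MMP14, MMP16 and MMP19), the tissue inhibitors of metalloproteases TIMP2, TIMP3 and TIMP4, and 3 secreted proteases of the ADAMTS family (ADAMTS1, ADAMTS4 and ADAMTS5). They were taken by symbol from the gene table, which lists 12894 genes, and were matched to 10 rows. All 10 were among the 10960 genes with a mean of at least 5 normalized reads over the 15 libraries, the minimum for testing.

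The study followed mesenchymal stem cells, the multipotent stromal cells of connective tissue, from bovine umbilical cord, with the aim of growing meat on cellulose scaffolds. On plastic plates, day 0 (3 libraries) was sampled 1 day after seeding and before any differentiation medium, day 3 (3 libraries) and day 21 (2 libraries) in myogenic medium. On scaffolds, day 21 cells came either from that same medium (the media scaffold, 4 libraries) or from a medium without the growth factors, which the material itself carried instead (the smart scaffold, 3 libraries). Before treatment all cells grew in low-glucose DMEM with fetal bovine serum. The myogenic medium was listed with less serum and with DMEM/F-12, ITS, BSA, dexamethasone, ascorbic acid 2-phosphate, vascular endothelial growth factor, insulin-like growth factor and a fibroblast growth factor. Because the scaffold libraries used here were all from day 21, they were set against plastic of the same day and against day 0 plastic, and the latter comparison changes both surface and time. The libraries were described as biological replicates without naming animals, so p-values measure the spread between these libraries.

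Values are reads scaled by the authors' size factors (normalized reads). The method, MARS-seq, counts transcripts at their 3′ end, so values were not divided by transcript length. Libraries held 2197356 to 15483745 reads, with the fewest in the day 21 plastic group (2197356 and 5264578 reads). The 8 mesenchymal markers examined (among them THY1, ENG and COL1A1) were all present and summed to 132082 to 472274 normalized reads per library. Single markers differed between groups: on day 21 plastic THY1 was higher than at day 0 by 5.49 (log2) and ENG by 2.35. THY1 was also higher than at day 0 on the media scaffold (5.27) and the smart scaffold (4.66). Against day 21 plastic, ENG was lower on the media and smart scaffold (−2.46 and −2.55) and COL1A2 higher (2.36 and 2.39). The 2 of 6 epithelial markers in the table summed to at most 6.93, and the 3 of 7 endothelial markers to at most 89.3; defining endothelial genes such as PECAM1 and CDH5 were not analysed here. The 5 of 8 blood and immune markers in the table summed to 130 to 179 on day 21 plastic, against 25.3 to 84.2 elsewhere, and CD14 and LAPTM5 led that difference. The part of these few reads in the day 21 plastic values was not tested.

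Matrix metalloproteases are zinc enzymes made as inactive precursors that degrade collagens and other matrix proteins. The membrane-anchored MMP14 activates the precursor of MMP2, a secreted gelatinase, with TIMP2 serving as the bridge between them at low levels and as an inhibitor of MMP14 at high levels. TIMP3 binds to the matrix and also blocks ADAM and ADAMTS proteases, among which ADAMTS1, ADAMTS4 and ADAMTS5 cleave the proteoglycans aggrecan and versican. In stromal cells and in muscle formation these enzymes take part in migration, cell fusion and remodelling of the matrix, but their activity is set largely after transcription and was not measured here.

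The transcripts of the MMP2 activation set (MMP2, MMP14 and TIMP2) stood higher on both scaffolds than at day 0, MMP2 and TIMP2 rose on plastic as well, and the other members followed other orders of groups. A gene was called changed at a limma p-value, adjusted by Benjamini-Hochberg over all tested genes, under 0.05 together with a log2 change of at least 1. From day 0 to day 3 on plastic, 2 of the 10 fell, where 3.73% of all tested genes were called lower, and none was called higher, against 6.27% of tested genes (3 were higher at an unadjusted p under 0.05, and edgeR called 1). From day 3 to day 21 on plastic, 3 rose and 1 fell, against 15.5% and 19.4% of tested genes. From day 0 to day 21 on plastic, 4 rose and 1 fell, against 21.2% and 24.1%. Between day 0 plastic and the media scaffold, 5 were higher, against 17.5%, and none was called lower, against 14.9% (2 were lower at an unadjusted p under 0.05, and edgeR called 0). Between day 0 plastic and the smart scaffold, 4 were higher and 1 was lower, against 16.5% and 14.1%. At day 21, 3 were higher on the media scaffold than on plastic, against 20.8%, and none was called lower, against 14.6% (0 were lower at an unadjusted p under 0.05, and edgeR called 0). On the smart scaffold 2 were higher and 1 was lower than on plastic at day 21, against 21.4% and 16.0%. The median log2 change of the 10 members was 0.85 on plastic from day 0 to day 21, 0.19 on the media scaffold and 0.26 on the smart scaffold against day 21 plastic, where the medians of all tested genes were −0.06, 0.02 and 0.01. These comparisons share the day 0 or the day 21 plastic libraries and are not independent of each other. Because the members were chosen with earlier results of these data known, no conclusion is drawn from their difference to all tested genes. Scaling every library to the same total, in place of the size factors, moved the median log2 change of all tested genes by −0.26 between day 0 and day 21 plastic, −0.32 between day 3 and day 21 plastic, and −0.25 and −0.23 between day 0 and the media and smart scaffold. The share of called genes that were higher then went from 46.8 to 35.4%, 44.5 to 27.1%, 53.9 to 39.3% and 53.9 to 39.3% in the same order, and no called change of a member turned its direction. In bulk libraries, fewer cells that express a gene and less RNA per cell cannot be told apart.

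**Figure D1:**
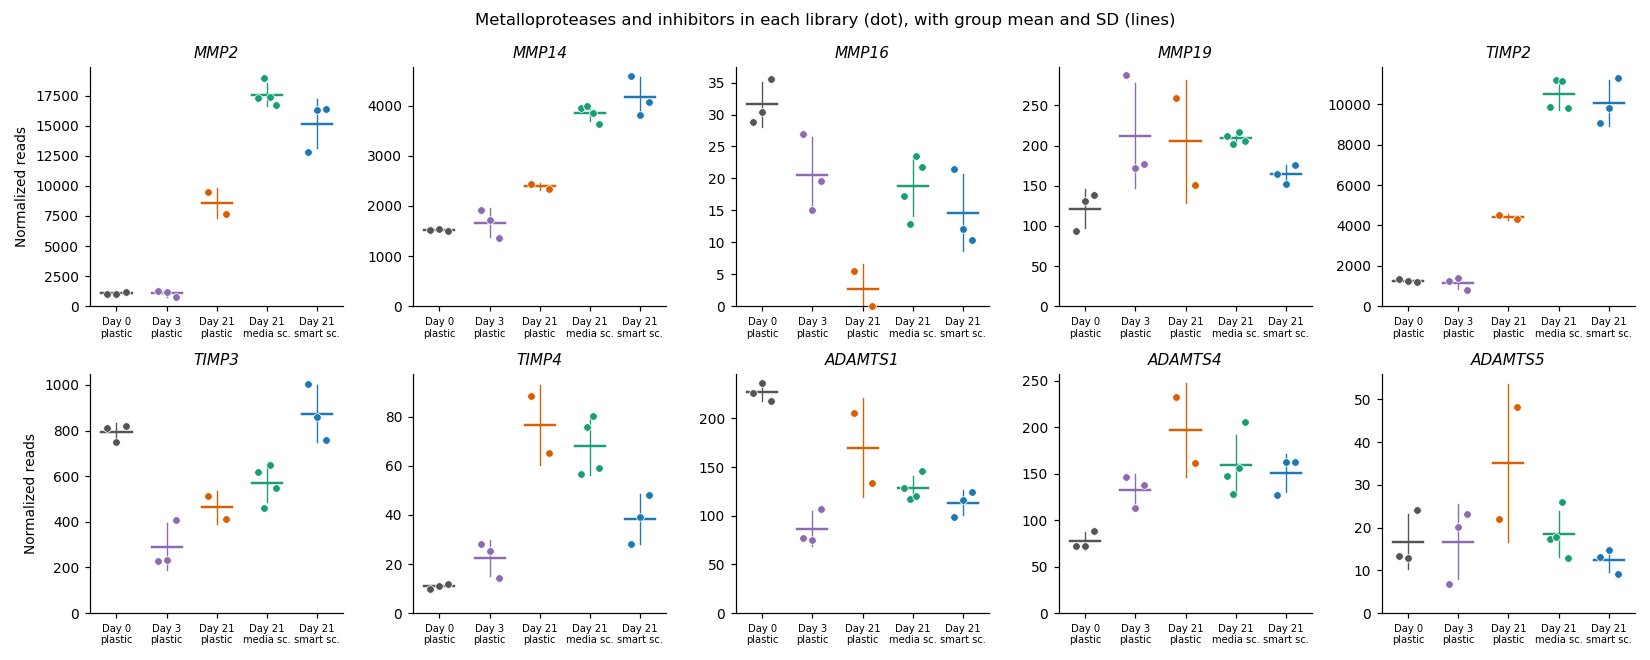
Normalized reads (linear axis from 0, different in each panel) of the 10 members in each of the 15 libraries by group; points are libraries, and the lines give the group mean and SD (drawn down to 0 where the SD passes it). MMP2 and TIMP2 climb in steps from day 0 and day 3 through day 21 plastic to the scaffolds, while TIMP3 is lowest at day 3 and MMP16 lowest on day 21 plastic.

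MMP2, which degrades denatured collagen and basement membrane collagen, had the largest normalized read numbers of the 10 members in every day 21 library. At day 0 its libraries held 1006, 1042 and 1149 normalized reads, and at day 3 1301, 1191 and 753. These groups overlapped, with a log2 change of −0.01 (95% interval −0.35 to 0.32; limma, adjusted p = 0.962). On plastic at day 21 the libraries held 9445 and 7656 normalized reads, above every earlier library. The rise from day 0 was 8.03-fold, from 1065 ± 74.4 (SD, n = 3) to 8551 ± 1265 (SD, n = 2), with a log2 change of 3.00 ± 0.18 (SE; limma, Benjamini-Hochberg adjusted p = 1.47e-10). The media scaffold libraries held 17309.7, 18920.4, 17375 and 16680.4, and the smart scaffold libraries 12789, 16294 and 16391. All 7 scaffold libraries were above both plastic libraries of day 21. Against day 0 the media scaffold was 16.5-fold higher (log2 change 4.04 ± 0.15, adjusted p = 2.2e-13) and the smart scaffold 14.2-fold higher (3.82 ± 0.16, adjusted p = 1.61e-12). Against day 21 plastic the media scaffold was 2.05-fold higher (log2 change 1.05 ± 0.17, adjusted p = 4.16e-05). That call depended on plastic replicate 2, without which the log2 change was 0.89, under the threshold, and it was still called without replicate 1. On the smart scaffold the log2 change from day 21 plastic was 0.82 (adjusted p = 0.000649), which is under the fold threshold.

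TIMP2, the inhibitor that also links MMP2 to MMP14, was also highest on the scaffolds and next highest on day 21 plastic. Its normalized reads were 1325, 1244 and 1175 at day 0 and 1246, 1415 and 812 at day 3, and these ranges overlapped. On day 21 plastic they were 4539 and 4316, on the media scaffold 9864, 11190.5, 11144 and 9813, and on the smart scaffold 9086, 9828 and 11294. Both scaffold groups lay wholly above day 21 plastic, which lay wholly above the earlier groups. TIMP2 rose 3.55-fold on plastic from day 0 to day 21 (log2 change 1.83 ± 0.17, limma adjusted p = 3.9e-08). It was a further 2.37-fold higher on the media scaffold (1.24 ± 0.16, adjusted p = 3.41e-06) and 2.27-fold higher on the smart scaffold (1.18 ± 0.17, adjusted p = 1.09e-05) than on plastic of the same day. Against day 0, the media scaffold mean of 10503 ± 768 (SD, n = 4) was 8.42-fold and the smart scaffold mean of 10069 ± 1124 (SD, n = 3) 8.07-fold higher, with adjusted p-values of 3.92e-12 and 1.65e-11 in limma.

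MMP14, the membrane protease that activates MMP2, was higher than MMP2 in all 6 libraries of day 0 and day 3 and lower in all 9 of day 21. It gave 1522, 1537 and 1509 normalized reads at day 0 and 1924, 1714 and 1367 at day 3, which overlapped. On day 21 plastic it gave 2444 and 2347, above every earlier library, but the log2 change from day 0 was 0.65 ± 0.12 (adjusted p = 0.000133), short of the fold threshold. The media scaffold gave 3946, 3998, 3854 and 3629.6, and the smart scaffold 4599, 3818 and 4082. Both scaffolds lay above all plastic libraries. From day 0 the rise was 2.53-fold on the media scaffold (log2 change 1.34 ± 0.10, adjusted p = 3.24e-09) and 2.74-fold on the smart scaffold (1.45 ± 0.11, adjusted p = 3.57e-09). Against day 21 plastic the log2 changes of 0.69 and 0.79 had adjusted p-values of 6.32e-05 and 2.38e-05 in limma and did not reach the fold threshold. In the RefSeq annotation of assembly ARS-UCD2.0 MMP14 overlaps RBM23, and whether the counting used strand was not given in the sources used here. RBM23 averaged 161 normalized reads at day 0, 186 at day 3 and 285 on day 21 plastic, the same order as MMP14 on plastic, and 99.0 and 102 on the media and smart scaffolds, where MMP14 was highest. Its part in the MMP14 values was not tested.

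MMP16, another membrane-anchored protease that can activate MMP2, had its lowest values on day 21 plastic. It gave 28.8, 30.4 and 35.5 normalized reads at day 0 and 26.9, 15.1 and 19.6 at day 3. On day 21 plastic replicate 1 held 5.52 normalized reads, made of 4 reads, and replicate 2 held 0, where 3 reads would have been 10.3 normalized reads. The media scaffold gave 17.2, 12.9, 23.5 and 21.7, and the smart scaffold 21.5, 12.1 and 10.3. Day 21 plastic was thus below every other library, although the floor of its replicate 2 lies at about the lowest smart scaffold value. MMP16 was called lower there than at day 0 (limma, adjusted p = 1.39e-05) and day 3 (0.000138), and higher on the media (0.000116) and smart scaffold (0.000661) than on plastic of that day. With 4 reads in the plastic group, the sizes are loose. The ratio of the reads summed over each group, allowing for the group's summed depth and so not the ratio of the means, was 8.19 (95% counting interval 3.14 to 30.4) for day 0 over day 21 plastic, 4.83 (95% counting interval 1.82 to 18.1) for the media scaffold over it and 3.48 (95% counting interval 1.25 to 13.5) for the smart scaffold over it, and these intervals cover counting error only. Against day 0 the media scaffold had a log2 change of −0.74 (adjusted p = 0.17) and the smart scaffold −1.12 (0.0598), neither past the test. The latter was called lower in 6 alternatives: edgeR (−1.19, adjusted p = 0.0027), the compared groups alone (0.00247), the same total (0.0276), quantile normalization (0.0107), the replicate block (0.0398) and without smart scaffold replicate 1 (−1.41, 0.0385).

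MMP19, a secreted protease with broad activity on basement membrane proteins, was called in no comparison by limma or edgeR. It ranged from 94.2 to 139 normalized reads at day 0 and from 172 to 288 at day 3, with no overlap (log2 change 0.78, adjusted p = 0.00821). On day 21 plastic its libraries were far apart, at 259 and 151, and without the lower library the log2 change from day 0 was 1.11 (adjusted p = 0.00116), past both thresholds, against 0.72 with it. The media scaffold held 202 to 217 and the smart scaffold 153 to 176 normalized reads, all above day 0 and within the range of day 21 plastic.

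TIMP3, the matrix-bound inhibitor, did not follow TIMP2: it was highest at day 0 and on the smart scaffold. Day 0 libraries held 813, 751 and 820.3 normalized reads. At day 3 they held 229.7, 233 and 409, all below day 0, a 2.73-fold fall (log2 change −1.50 ± 0.19, limma adjusted p = 8.88e-06). Day 21 plastic held 513 and 412, just above day 3 (log2 change 0.72, adjusted p = 0.00654) and below day 0 (−0.79, 0.00279), both short of the fold threshold. The media scaffold held 617, 463, 649 and 549.8 and the smart scaffold 1005, 861 and 757, and every smart scaffold library was above every media scaffold and day 21 plastic library. The smart scaffold mean of 875 ± 125 (SD, n = 3) was close to the day 0 mean of 795 ± 38.1 (SD, n = 3), with a log2 difference of 0.13 (95% interval −0.26 to 0.52). Against day 21 plastic the smart scaffold gave a log2 change of 0.92 ± 0.21 (adjusted p = 0.000985), which passed the fold threshold only without plastic replicate 1 (1.07) or without smart scaffold replicate 3 (1.01). In the same annotation TIMP3 overlaps SYN3, TIMP4 overlaps SYN2 and TIMP2 overlaps CEP295NL, and these partners were not analysed here.

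TIMP4, the least abundant of the 3 inhibitors, was highest on day 21 plastic and the media scaffold. It gave 9.84, 11.2 and 11.8 normalized reads at day 0 and 28.3, 25.2 and 14.3 at day 3, all above day 0. The day 3 log2 change of 0.93 (adjusted p = 0.0132) stood just under the fold threshold and passed it in edgeR (1.10) and without day 3 replicate 3 (1.21). Day 21 plastic gave 88.3 and 65.3, a 7.01-fold rise from day 0 (log2 change 2.69 ± 0.30, adjusted p = 3.99e-07). The media scaffold gave 56.6, 75.6, 80.2 and 59.2, overlapping plastic, and the smart scaffold 28.1, 39.0 and 48.3, below both. From day 0 the rise was 6.20-fold on the media scaffold (adjusted p = 1.01e-07) and 3.51-fold on the smart scaffold (3.05e-05). Smart scaffold against day 21 plastic gave −1.0 ± 0.30 (adjusted p = 0.00756), a value at the fold threshold that was not called as computed and was called, among others, with quantile normalization (−1.16), without plastic replicate 2 (−1.21) and without smart scaffold replicate 2 (−1.02) or 3 (−1.17).

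**Figure D2:**
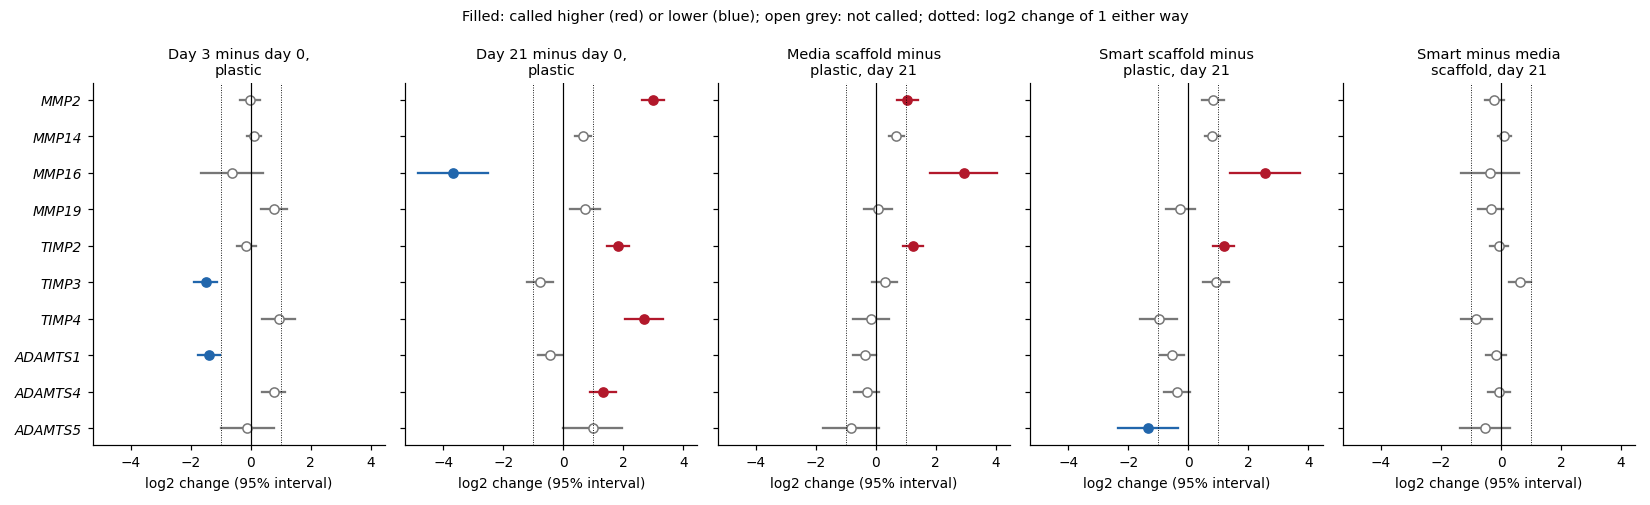
Log2 change of each member in 5 comparisons (points, with 95% intervals from limma; filled points passed both thresholds, and dotted lines mark a log2 change of 1 in either direction). MMP2, TIMP2, TIMP4 and ADAMTS4 points lie to the right of the threshold for day 21 against day 0 on plastic. The TIMP3 and ADAMTS1 points lie left of the threshold at day 3, and MMP16 has the widest intervals.

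ADAMTS1, a proteoglycan-cleaving protease also known for binding vascular endothelial growth factor, fell early and did not return to its day 0 level on scaffolds. It gave 226, 237 and 218 normalized reads at day 0 and 77.5, 75.5 and 107 at day 3, a 2.62-fold fall with no overlap (log2 change −1.40 ± 0.17, limma adjusted p = 8.32e-06). Day 21 plastic gave 206 and 134, between the 2 earlier groups, with log2 changes of 0.95 from day 3 (adjusted p = 0.000377) and −0.45 from day 0 (0.0467). The change from day 3 passed the fold threshold in edgeR (1.04), without the lower plastic library, replicate 2 (1.26), and without day 3 replicate 3 (1.11). The media scaffold gave 129, 117, 119.9 and 146 and the smart scaffold 99.0, 116 and 124, all below day 0. Against day 0 the log2 change was −0.82 ± 0.16 on the media scaffold (adjusted p = 0.000235) and −1.0 ± 0.17 on the smart scaffold (7.36e-05). The smart scaffold call sits at the fold threshold and was lost in edgeR (−1.0) and without smart scaffold replicate 1 (−0.91) or day 0 replicate 2 (−0.97).

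ADAMTS4, a principal aggrecanase of cartilage, went the other way. Day 0 libraries held 72.4, 72.0 and 88.4 normalized reads and day 3 libraries 147, 113 and 137, with no overlap (log2 change 0.76, adjusted p = 0.00465). Day 21 plastic held 233 and 162, a 2.54-fold rise from day 0 (log2 change 1.32 ± 0.21, adjusted p = 2.3e-05). The scaffold libraries ranged from 128 to 205 on media and 127 to 163 on smart scaffolds, all above day 0. The media scaffold was called 2.05-fold higher than day 0 (log2 change 1.01, adjusted p = 6.48e-05), a value at the fold threshold that fell to 0.77 when libraries were scaled to the same total and to 0.89 without media scaffold replicate 4, and that was also short of it without day 0 replicate 1 (0.97) or 2 (0.96). The smart scaffold log2 change of 0.95 ± 0.19 (adjusted p = 0.000279) was called only without smart scaffold replicate 1 (1.07) or day 0 replicate 3 (1.04), and the scaffolds differed by −0.07 (95% interval −0.43 to 0.30). ADAMTS4 and ADAMTS1 therefore stood at opposite sides of their day 0 levels in all 12 later libraries.

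ADAMTS5, the other main aggrecanase, had the fewest reads of the 3 ADAMTS members. Its group means were 16.7 normalized reads at day 0, 16.7 at day 3, 35.1 on day 21 plastic, 18.5 on the media scaffold and 12.4 on the smart scaffold. The day 21 plastic libraries held 22.1 and 48.1, so the higher one alone sets that mean apart. It was called lower on the smart scaffold (13.2, 14.7 and 9.20) than on day 21 plastic (log2 change −1.35 ± 0.47, limma adjusted p = 0.0183). Without plastic replicate 2 that change was −0.81 (adjusted p = 0.24), and without smart scaffold replicate 3 it was −1.17 (0.062). Without plastic replicate 1, in turn, the media scaffold was also called lower (−1.38, adjusted p = 0.038) against −0.83 (0.114) with both. From day 3 to day 21 on plastic the change of 1.09 missed the test (adjusted p = 0.0528) and passed it without plastic replicate 1 (1.63) or day 3 replicate 2 (1.30) or 3 (1.40), and with quantile normalization (1.26) or the replicate block (1.23). The change from day 0 to day 21 of 0.98 (0.0723) passed it without plastic replicate 1 (1.52) or day 0 replicate 3 (1.26), and with the block (1.13).

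Added together, the 4 metalloproteases gave 2741 ± 91.0 normalized reads at day 0 (mean ± SD, as for the sums that follow), 2983 ± 618 at day 3, 11154 ± 1414 on day 21 plastic, 21656 ± 1079 on the media scaffold and 19503 ± 1681 on the smart scaffold. The 3 TIMPs gave 2054 ± 81.3, 1471 ± 221, 4967 ± 246, 11140.4 ± 766 and 10982 ± 1015 in the same order of groups. Both sums were thus larger in every day 21 group than at day 0 or day 3. The mean sum of the 3 ADAMTS genes ranged from 236 at day 3 to 402 on day 21 plastic. The number of metalloprotease reads per TIMP read was 1.34 ± 0.09 at day 0, 2.03 ± 0.28 at day 3, 2.24 ± 0.17 on day 21 plastic, 1.95 ± 0.10 on the media scaffold and 1.78 ± 0.10 on the smart scaffold. The day 0 libraries, at 1.23 to 1.41, lay below the other 12, at 1.71 to 2.36; the ratio of read numbers is not a ratio of active proteins.

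The make-up of these sums shifted as well. Other metalloproteases, such as MMP23 and MMP28, and TIMP1 were not part of the sums or their ratio. MMP2 made 38.8% of the reads of the member metalloproteases at day 0 and 35.9% at day 3. It made 76.6% on day 21 plastic, 81.1% on the media scaffold and 77.5% on the smart scaffold, with MMP14 making most of the remainder. TIMP3 made 38.7% of the reads of TIMP2, TIMP3 and TIMP4 at day 0 and 20.8% at day 3. Its share was 9.29% on day 21 plastic, 5.14% on the media scaffold and 8.07% on the smart scaffold. From the balance of 60.7% TIMP2 at day 0, the reads of these TIMPs therefore came to be at least 89.2% TIMP2 in the mean of each day 21 group.

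**Figure D3:**
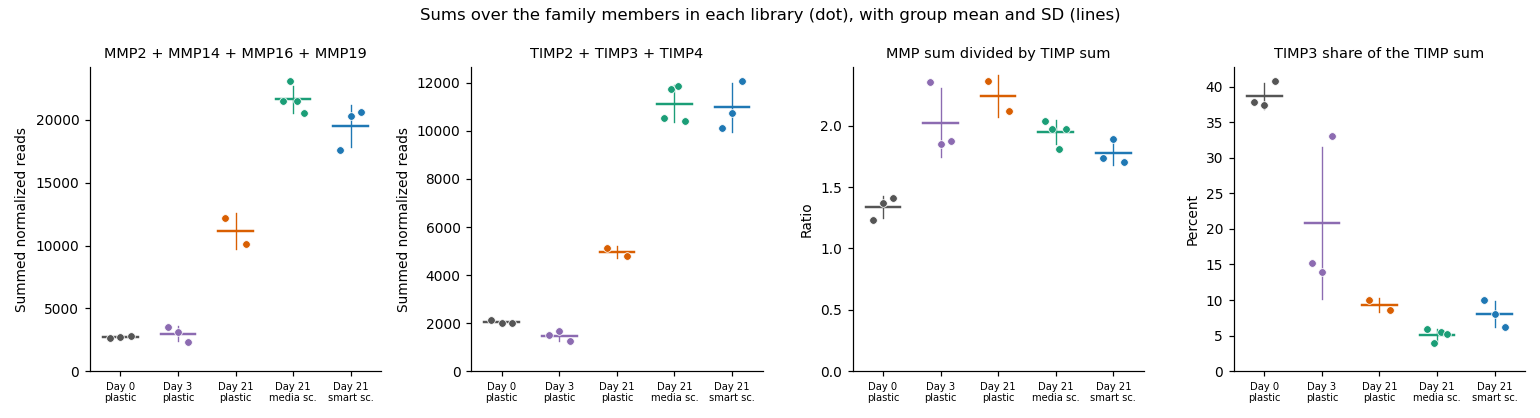
Summed normalized reads of the 4 metalloproteases and of the 3 TIMPs, metalloprotease reads per TIMP read, and the percent of TIMP reads from TIMP3, in each of the 15 libraries by group; points are libraries, and the lines give the group mean and SD. Both sums are highest on the scaffolds, the ratio is lowest at day 0, and the TIMP3 percent is highest at day 0.

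Whether growth factors were dissolved in the medium or fixed to the scaffold could be compared at day 21. Of the 10 members, none was called between the smart and the media scaffold by limma or edgeR, where 0.903% of tested genes were called, and 2 had an unadjusted p under 0.05. Those were TIMP3, higher on the smart scaffold by a log2 difference of 0.62 (95% interval 0.25 to 0.99, adjusted p = 0.0774), and TIMP4, at −0.82 (−1.35 to −0.30, adjusted p = 0.11). In both, the 3 smart scaffold libraries lay outside the range of the 4 media scaffold libraries. The same held, below that range, for MMP2 (log2 difference −0.22, 95% interval −0.54 to 0.09) and MMP19 (−0.35, −0.76 to 0.06). Their limma adjusted p-values were 0.6 and 0.497. The share of all tested genes separated in this way was not computed, so no conclusion is drawn from the separation. For TIMP2 the 95% interval of the difference ran from −0.36 to 0.23 and for MMP14 from −0.11 to 0.32, so both excluded a log2 difference of 1 in either direction. For MMP16 (−1.35 to 0.60) and ADAMTS5 (−1.35 to 0.31), both with few reads, a difference of that size was within the interval. ADAMTS1 differed by −0.18 (95% interval −0.52 to 0.16).

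Across the 15 libraries the log2 values of MMP2 and TIMP2 had a Pearson correlation of 0.991, those of MMP14 and TIMP2 0.977, and those of MMP2 and MMP14 0.958. TIMP4 had 0.855 with MMP2, whereas TIMP3 had at most 0.574 with any member, ADAMTS1. These values describe libraries that share groups and, within a group, a treatment. Of all tested genes that are not members, those most like MMP2 over the 15 libraries were SERPINF1 (r = 0.996), ELN (r = 0.996) and COPZ2 (r = 0.996), which encode the secreted factor PEDF, the elastic fibre protein elastin and a coat protein of transport vesicles. Most like TIMP2 were ROR2 (r = 0.995), MMP23 (r = 0.993) and CCDC8 (r = 0.993), of which ROR2 is a WNT5A receptor and MMP23 another metalloprotease. Most like MMP14 were GNG7 (r = 0.985), HTRA1 (r = 0.985) and MGLL (r = 0.985), of which HTRA1 is a secreted serine protease. For TIMP4 they were SOD3 (r = 0.976), EPS15L1 (r = 0.971) and HSPA12B (r = 0.969), of which SOD3 is the extracellular superoxide dismutase. For TIMP3 the leading genes were TPM1 (r = 0.909), AARS (r = 0.889) and AKIP1 (r = 0.885), with TPM1 encoding a tropomyosin of the actin filament. For ADAMTS1 they were SLC2A3 (r = 0.929), FAM168B (r = 0.923) and SCFD2 (r = 0.866). For ADAMTS4 they were UBE2H (r = 0.937), SLC22A4 (r = 0.925) and CTNNA1 (r = 0.921). The leading correlation was lowest for MMP19, with TTC8 (r = 0.895), ENPP1 (r = 0.882) and HOXC10 (r = 0.882), and for ADAMTS5, with CDON (r = 0.824), TRMT10B (r = 0.806) and METAP2 (r = 0.793). For the sparse MMP16 they were TMEM231 (r = 0.973), ALG8 (r = 0.970) and TIPRL (r = 0.968).

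Around the 10 members, other genes of matrix turnover were grouped into lists by role. Of 18 other matrix metalloproteases listed by symbol, 3 were in the table and tested; MMP23 above was under a symbol not on the list. From day 0 to day 21 on plastic MMP17 (83.7 to 4.48 normalized reads) and MMP28 (381 to 166) fell. MMP15, with 9 reads in each of these groups, was called higher (log2 change 1.63, adjusted p = 0.0297), but not without plastic replicate 1 (0.91, 0.301) or day 0 replicate 1 (1.39, 0.091), with the same total (0.0646) or with a pseudocount of 4 (0.97). Both MMP17 and MMP28 were higher on the media (20.2 and 725) and smart scaffold (26.7 and 869.9) than on plastic of day 21. The others on the list, such as MMP1 and MMP9, were not analysed here. Of the inhibitors, RECK, a membrane-anchored protein that blocks MMP2, MMP9 and MMP14, averaged 31.4 normalized reads on day 21 plastic, 122 on the media scaffold and 111 on the smart scaffold (limma, adjusted p = 5.73e-06 and 2.31e-05), and TIMP1 was not analysed here. A2M, the secreted broad-range protease trap, averaged 0.309 normalized reads at day 0, held 83.4 on day 21 plastic and 6.98 on the media scaffold and had 0 reads on the smart scaffold. Day 21 plastic was at least 81.1-fold above the smart scaffold, with a floor of 3 reads over the group.

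Of 4 tested convertases, which cleave off the propeptides of MMP14 and the ADAMTS proteases, 2 were called higher on day 21 plastic than at day 0. Of all tested genes, 21.2% were called higher there, and the list median was 1.96. PCSK5 averaged 14.5 normalized reads at day 0, 118 on day 21 plastic, 498 on the media scaffold and 441 on the smart scaffold, the same order of groups as MMP2. PCSK6 rose on plastic by 3.21 (log2). FURIN, a member of the same family, was not called in these comparisons: its log2 change was 0.96 on plastic from day 0 to day 21 and −0.66 and −0.54 on the scaffolds against day 21 plastic. Of 11 other ADAMTS and ADAMTS-like genes tested, 8 rose and 1 fell on plastic from day 0 to day 21 (list median 2.31). The shares of all tested genes were 21.2% and 24.1%. With the filter at a mean of 20, by which genes with few reads are not tested, 5 of the list rose and 0 fell. Against day 21 plastic, 5 were lower and 0 higher on the media scaffold (list median −0.84), where 14.6% and 20.8% of tested genes were. These counts changed without plastic replicate 2. The 5 lower became 3 with a pseudocount of 4 and 1 with the filter at a mean of 20. With the compared groups alone 6 were lower and 1 higher, and with no filter 7 and 1. On the smart scaffold, 4 were lower and 2 higher (−0.86), where 16.0% and 21.4% of tested genes were. The 2 higher became 1 without smart scaffold replicate 2 or 3 and in edgeR. They also became 1 with a pseudocount of 4, quantile normalization or the compared groups alone. With the filter at a mean of 20, 1 was lower and 1 higher. The counts changed without plastic replicate 1 as well. ADAMTS15, an aggrecanase, averaged 0.675 normalized reads at day 0 (4 reads), 416 on day 21 plastic, 14.8 on the media scaffold and 2.97 on the smart scaffold (6 reads). Between the 2 scaffolds, A2M (at least 6.07-fold lower on the smart scaffold, adjusted p = 0.00018) and ADAMTS15 (log2 change −2.31, adjusted p = 0.0362) were the genes called on the 8 lists. A2M passed the minimum mean of 5 for testing through its reads on day 21 plastic. Its call was absent with the compared groups alone and with the filter at a mean of 20. The ADAMTS15 call was lost, at adjusted p-values of 0.0772 to 0.177, without media scaffold replicate 1, 2 or 3 or smart scaffold replicate 2 or 3. ADAMTSL2, a matrix protein without protease activity, rose by 4.41 (log2) on plastic, from 4 reads at day 0 to 38 at day 21. Against day 21 plastic it had log2 changes of −2.29 on the media scaffold and −3.07 on the smart scaffold (9 reads). The procollagen protease ADAMTS2 rose from 536 to 3529.7 on plastic and held 3413 and 2961 on the scaffolds.

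Among the substrates of ADAMTS proteases, versican (VCAN) and aggrecan (ACAN) went in opposite directions between plastic and scaffold. VCAN averaged 189 normalized reads at day 0, 896 on day 21 plastic, 143 on the media scaffold and 164 on the smart scaffold (log2 change against day 21 plastic −2.63 and −2.46; limma, adjusted p = 3.68e-08 and 1.36e-07). ACAN averaged 2.98, 2.41, 30.4 and 46.2, and the ratio of its summed reads to those of day 21 plastic (2 reads), allowing for depth, was 15.4 (95% counting interval 4.19 to 129) on the media scaffold and 24.2 (95% counting interval 6.55 to 202) on the smart scaffold. The link protein HAPLN1, which fixes aggrecan to hyaluronan, averaged 5.52 on day 21 plastic (8 reads), 107 on the media scaffold and 87.8 on the smart scaffold. Its ratios of summed reads to day 21 plastic were 13.6 (95% counting interval 6.85 to 31.7) and 11.3 (95% counting interval 5.62 to 26.4). In all, 3 of the 4 tested lecticans and link proteins were higher and 1 lower on each scaffold than on day 21 plastic (list medians 2.49 and 2.65). Of all tested genes, 20.8% were higher and 14.6% lower on the media scaffold, and 21.4% and 16.0% on the smart scaffold.

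Of 7 clearance and surface partners tested, 3 rose and 2 fell on plastic from day 0 to day 21 (list median 0.41), against 21.2% and 24.1% of tested genes. LRP1, the endocytic receptor that removes MMP2 complexes, TIMP3 and ADAMTS proteases from the cell surface, averaged 32.7 normalized reads at day 0, 238 on day 21 plastic, 72.8 on the media scaffold and 71.9 on the smart scaffold. Its lower level on the media scaffold (log2 change −1.58, adjusted p = 0.000119) and on the smart scaffold (−1.61, 0.000159) fell short of the fold threshold without day 21 plastic replicate 2, at −0.96 and, before rounding, just under 1 in size. The collagen receptor MRC2 rose on plastic by 3.30 (log2) and was lower on the smart scaffold than there (−1.80). ITGB3, an integrin subunit of a receptor that binds MMP2, was higher by 2.23 on the media scaffold and 2.52 on the smart scaffold than on day 21 plastic. Of 7 ADAM proteases tested, 1 rose and 3 fell on plastic from day 0 to day 21, against 21.2% and 24.1% of tested genes. ADAM9 (−2.06), a broadly expressed sheddase, led the falls and was higher again on both scaffolds (2.40 and 2.73 against day 21 plastic). ADAM8 was higher at day 3 than at day 0 on plastic (2.34) and then fell (−4.36 from day 3 to day 21, −2.02 from day 0 to day 21). It was lower still on the scaffolds (−1.95 and −1.90 against day 21 plastic).

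Of 10 other matrix-degrading proteases tested, 6 were higher and 1 lower on each scaffold than on day 21 plastic, with list medians of 1.91 and 1.76. Among all tested genes, 20.8% were higher and 14.6% lower on the media scaffold, and 21.4% and 16.0% on the smart scaffold. Setting the gene with no reads on plastic at its bound left both medians as they were. The secreted serine protease HTRA3 averaged 2585 normalized reads at day 0, 149 at day 3 and 48.5 on day 21 plastic, falls from day 0 of −4.14 and −5.79 (log2), and 359.6 and 485 on the media and smart scaffold, above day 21 plastic and below day 0. PRSS23, another serine protease, averaged 969.6, 238, 1876 and 2279 at day 0, on day 21 plastic and on the media and smart scaffold. The lysosomal cathepsin CTSB rose from 701 at day 0 to 3893 on day 21 plastic. The collagen-degrading cathepsin CTSK averaged 1057 normalized reads at day 0, 1614 on day 21 plastic, 7210.3 on the media scaffold and 8273 on the smart scaffold. HTRA1 averaged 1600.4, 4135, 12593 and 10987 in the same order. The cathepsin CTSL had no reads on day 21 plastic and averaged 205 and 168 on the scaffolds, at least 68.8-fold and 58.1-fold higher, with the same floor of 3 reads.

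**Figure D4:**
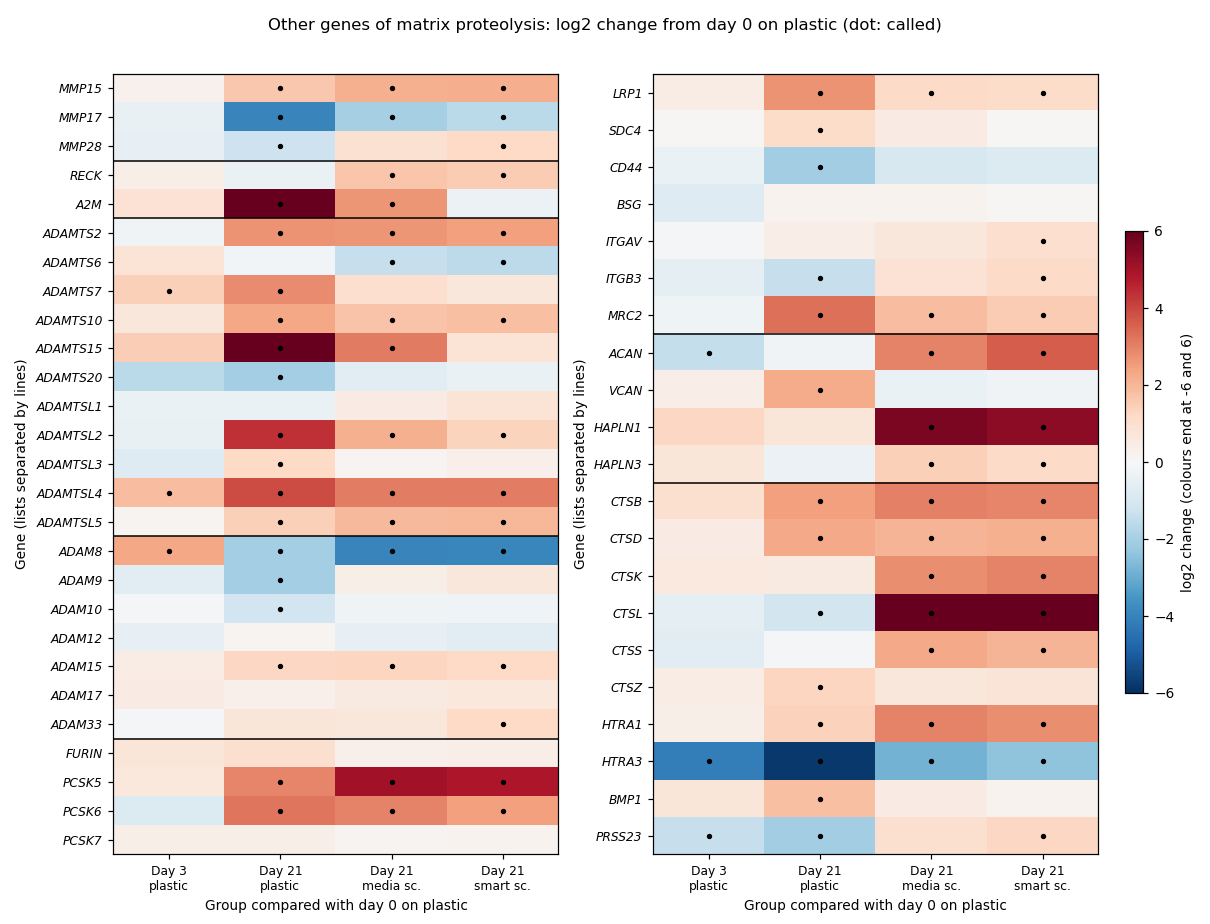
Log2 change from day 0 plastic (colour) of the tested genes of the other matrix-turnover lists in the later groups; a dot marks a change that passed both thresholds in limma. ADAMTS15 and A2M (higher) and HTRA3 (lower) stand out on day 21 plastic, and CTSL, HAPLN1 and PCSK5 on the scaffolds.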

How the data were processed

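The series held 17 MARS-seq libraries in 6 groups. The gene table had columns that matched the titles of 15 of them, in 5 groups. Its 2 other value columns matched no title and were not used, so the day 0 scaffold comparisons were not run. The submitters' processing notes name cutadapt, STAR, HTSeq, DESeq and the bovine build ARS-UCD1.2. The authors deposited a signal per gene and library, reads divided by size factors. 100% of the values were whole multiples of the value of 1 read (tolerance 0.1 read), and the recovered reads gave the depths.

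The test was limma 3.58.1 in R 4.3.3 (trend, robust, two-sided) on log2(value + 1), 1 mean per group over 15 libraries, for the 10960 of 12894 genes with a mean of at least 5. Fold changes are ratios of group means (for genes with few reads, ratios of summed reads with depth allowed for), and log2 changes, on the log2(value + 1) scale, understate those of low genes. All limma p-values were adjusted by Benjamini-Hochberg within a comparison. Calls needed both an adjusted p under 0.05 and a log2 change of 1 or more in size. Day 21 plastic rests on 2 libraries. edgeR 4.0.16 (quasi-likelihood) on the recovered reads called 107 genes between the scaffolds (limma 99) and 1246 to 4834 in the other comparisons (limma 1096 to 4956).

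Other alternatives were the pseudocount (0.5 and 4), the filter (none and 20), scaling to the same total or by quantiles, fitting the compared groups alone, a replicate block, and leaving out each library. The scripts were tested on simulated data. Intervals of read ratios are exact and, like the floor of 3 reads, cover counting error only.

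Members and lists were chosen with earlier results of these data known. Named genes were all members, 6 set genes of the lists (TIMP1, RECK, FURIN, LRP1, VCAN and ACAN), the 2 called genes of each list with the largest change in a comparison, and the 3 genes with a symbol most correlated with each member. MMP28, MMP17, ADAMTS2, HAPLN1, CTSK and HTRA1 are given in some comparisons outside that rule, chosen after their values were seen. The text gives list genes for the day 21 comparisons. Overlapping genes come from the RefSeq table of ARS-UCD2.0, in which 10 of 10 members matched by symbol.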

Additional observations from a re-analysis of the deposited data

How the results depend on the processing

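Of 357 recomputed counts, 333 were within 1.5 times the reported one, and of 1174 recomputed log2 changes of members, 1127 kept their side of the thresholds. No called change turned its sign; 22 values of 11 changes that were not called, at most 0.27 in size as reported, took the other sign. Between smart scaffold and day 21 plastic, 1 member was called lower, and 2 with a pseudocount of 0.5 or quantile normalization. Between smart scaffold and day 0, 1 was called lower, 0 with a pseudocount of 4, and 2 with libraries scaled to the same total, quantile normalization or the compared groups alone. With the filter at a mean of 20, MMP16 and ADAMTS5 were not tested by construction: 0 members were lower on day 21 plastic than at day 3 or day 0, and 1 was higher and 0 lower on the smart scaffold than on day 21 plastic. With the same total, 2 were lower on day 21 plastic than at day 0 (TIMP3 was added) and 1 on the media scaffold than at day 0 (ADAMTS1). In edgeR, 1 member, TIMP4, was called higher at day 3 than at day 0, where limma called 0. Except where a filter is named, the cause was not tested.

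Leaving out 1 library at a time gave 0 to 1 members higher at day 3 than at day 0 (1 without day 3 replicate 3), 3 to 5 higher on day 21 plastic than at day 3 (5 without day 3 replicate 3), 0 to 1 lower on the media scaffold than on day 21 plastic (1 without plastic replicate 1), 1 to 2 lower on the smart scaffold than on day 21 plastic (2 without smart scaffold replicate 2), and 0 to 1 lower on the smart scaffold than at day 0 (0 without day 0 replicate 2). The 99 genes called between scaffolds became 53 to 87 (53 without media scaffold replicate 2, 61 without replicate 1 or 3, and 62 without smart scaffold replicate 2). A plastic group left with 1 library is assumed to vary like the other groups.

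Shared replicate numbers were not shown to pair libraries: deviations from the group means correlated by −0.07 to 0.16 over 20 pairs, 2 of them over 0.1, and 1 of 12 libraries was most like its own number. With the replicate block, 2 members were lower on the smart scaffold than on day 21 plastic and 2 than at day 0, ADAMTS5 was called higher on day 21 plastic than at day 3 (1.23) and day 0 (1.13), ADAMTS4 was not called between media scaffold and day 0 (0.89), and 78 genes were called between scaffolds. The day 21 plastic depth limits MMP16 (4 reads) most.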
